A study of Mus musculus with 51 samples.

Results

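The 10 genes described here encode core components of the Hedgehog pathway: the ligand Shh, the co-receptors Boc, Cdon and Gas1, the receptor Ptch1, the ligand-binding antagonist Hhip, the transducer Smo and the transcription factors Gli1, Gli2 and Gli3. They were chosen by name and not by a measured value, and they are 10 of 22365 protein-coding genes in the annotation used. For each gene, all H3K27ac and H3K4me1 peaks that overlapped its body or the 10 kb on either side were collected, which gave 757 of the 803595 peaks in 6 lists (229 of H3K27ac and 528 of H3K4me1). In mm9 coordinates, Shh lies at chr5:28783355-28793641, and the co-receptor genes Boc, Cdon and Gas1 lie at chr16:44485158-44559010, chr9:35228713-35315236 and chr13:60275766-60278726. Ptch1 lies at chr13:63610261-63674474, Hhip at chr8:82490014-82581905 and Smo at chr6:29685694-29711365. The Gli genes lie at chr10:126766945-126778645 (Gli1), chr1:120730709-120950196 (Gli2) and chr13:15555068-15821859 (Gli3). The Smo and Gli1 windows each also reach the promoter of another coding gene, Ahcyl2 and Arhgap9.

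In Hedgehog signalling, the secreted ligand binds Ptch1 together with its co-receptors and so relieves the block that Ptch1 places on Smo. Active Smo, at the primary cilium, shifts the Gli proteins from repressors to activators, and Ptch1, Hhip and Gli1 are themselves classical Gli targets. In the nervous system the pathway patterns the ventral neural tube, maintains neural stem cells and acts in astrocytes.

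The marks were profiled by ChIP-seq in 3 stages of a culture in which C57/BL-6 mouse embryonic stem cells are turned into astrocytes. The astrogliogenic precursors (aNPC) were kept in N2 medium with EGF and FGF-2, early astrocytes (eA) had spent 1 day and late astrocytes (lA) 5 days in DMEM with 1% FBS and LIF, and none of these groups carried a siRNA or a genetic change. H3K27ac is found at active promoters and enhancers, and H3K4me1 at enhancers that are active or primed. The authors merged 2 replicates per stage and mark before calling peaks, so each stage has 1 list per mark, no error between cultures can be given and no difference between stages was tested. The depth of the libraries is unknown here, and the lists differ in length (79413, 83433 and 92700 H3K27ac peaks and 154238, 185478 and 208333 H3K4me1 peaks in aNPC, eA and lA). Peak strength is therefore given as a percentile, the share of peaks in the same list with a lower −log10 q, and differences between stages in this rank are descriptions of these lists.

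The cell type labels were checked against promoter H3K27ac of marker genes. The neural progenitor genes Nes, Sox2, Vim and Pax6 carried a peak at each stage, the astrocyte genes Gfap, Slc1a3, Slc1a2 and Aldoc did so too, Aqp4 had one in lA only, Gja1 in eA and lA, S100b in aNPC only, and no stage had one at Aldh1l1. None of the 4 pluripotency, 3 microglial or 2 endothelial markers had a promoter H3K27ac peak at any stage, nor did the neuronal genes Rbfox3 and Dcx, the fibroblast genes Col1a1, Col1a2 and Dcn, or the oligodendrocyte genes Mbp, Mog and Sox10. The neuronal genes Tubb3 and Map2 and the fibroblast-associated gene Pdgfra had one at all 3 stages, the oligodendrocyte gene Cnp in aNPC and eA, and the neuronal gene Syt1 in aNPC only.

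Because the data are peak positions, the sequences under the elements that the results below turn on are given here, read from the mm9 genome and written along the strand of the gene. The first pair are the only places where the exact Gli motif GACCACCCA (in capitals, or its reverse complement) lay inside a peak of either mark in the 10 windows, one upstream of the most distal Ptch1 start and one in a Boc intron.
Ptch1 upstream, mm9 chr13:63674702-63674851, minus strand: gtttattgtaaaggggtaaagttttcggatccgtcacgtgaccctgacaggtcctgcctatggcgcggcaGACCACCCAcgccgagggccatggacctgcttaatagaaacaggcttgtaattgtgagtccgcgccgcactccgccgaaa
Boc intron, Gli match, mm9 chr16:44552198-44552347, minus strand: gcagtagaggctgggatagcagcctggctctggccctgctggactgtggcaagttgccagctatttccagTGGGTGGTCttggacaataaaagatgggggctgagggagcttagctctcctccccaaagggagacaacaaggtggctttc
The next elements mark a stage. They are the 200 bases around the H3K27ac summit of the strongest Ptch1 region found in aNPC only, and of distal regions at Boc, Gli3 and Shh that ranked lower in aNPC than in eA and lA. Capitals, present in the Ptch1 element alone, mark a match to the RUNX motif TGTGGTT, and the other 3 held no match to the Gli motif, the NF1 half-site TTGGCA, the AP-1 motif TGANTCA or the RUNX motif.
Ptch1 intron, aNPC only, mm9 chr13:63655632-63655831, minus strand: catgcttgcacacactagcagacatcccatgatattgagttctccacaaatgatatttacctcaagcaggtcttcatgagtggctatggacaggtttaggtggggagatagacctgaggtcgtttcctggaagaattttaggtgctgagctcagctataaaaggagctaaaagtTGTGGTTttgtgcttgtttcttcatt
Boc intron, lA summit, mm9 chr16:44516392-44516591, minus strand: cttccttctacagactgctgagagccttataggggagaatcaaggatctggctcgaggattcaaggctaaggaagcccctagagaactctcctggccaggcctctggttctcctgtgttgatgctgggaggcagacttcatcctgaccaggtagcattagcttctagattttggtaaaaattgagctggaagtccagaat
Gli3 intron, eA summit, mm9 chr13:15648825-15649024, plus strand: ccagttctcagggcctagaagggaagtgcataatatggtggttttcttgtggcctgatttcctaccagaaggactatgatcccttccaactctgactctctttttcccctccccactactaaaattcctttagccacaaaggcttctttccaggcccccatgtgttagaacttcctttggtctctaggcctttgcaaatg
Shh upstream, lA summit, mm9 chr5:28802725-28802924, minus strand: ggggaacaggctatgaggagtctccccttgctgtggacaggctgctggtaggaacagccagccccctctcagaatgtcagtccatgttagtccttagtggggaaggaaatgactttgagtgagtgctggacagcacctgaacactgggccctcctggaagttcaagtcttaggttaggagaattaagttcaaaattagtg
The last 3 are the 200 bases before the coding starts of Shh, Smo and Hhip, with CpG dinucleotides in capitals, shown because H3K27ac at these promoters was absent (Shh), high in rank (Smo) and different in rank between stages (Hhip).
Shh promoter, mm9 chr5:28793642-28793841, minus strand: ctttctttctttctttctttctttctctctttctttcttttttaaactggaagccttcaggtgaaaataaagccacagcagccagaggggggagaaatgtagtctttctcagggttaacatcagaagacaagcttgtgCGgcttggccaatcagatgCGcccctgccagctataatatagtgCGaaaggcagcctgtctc
Smo promoter, mm9 chr6:29685494-29685693, plus strand: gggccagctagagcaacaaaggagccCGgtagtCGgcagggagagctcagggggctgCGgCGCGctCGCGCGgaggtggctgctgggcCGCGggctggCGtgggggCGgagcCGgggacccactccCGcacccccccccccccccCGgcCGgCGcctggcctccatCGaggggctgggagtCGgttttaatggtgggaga
Hhip promoter, mm9 chr8:82581906-82582105, minus strand: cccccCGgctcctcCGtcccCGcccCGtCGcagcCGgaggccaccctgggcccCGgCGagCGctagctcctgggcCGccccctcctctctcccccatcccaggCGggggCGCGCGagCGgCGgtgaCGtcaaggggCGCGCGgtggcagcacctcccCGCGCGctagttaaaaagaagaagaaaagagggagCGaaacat
The Shh stretch held 3 CpG and was 45.0% G or C, against 19 CpG and 75.5% for Smo and 24 CpG and 73.0% for Hhip. These promoters were picked by their H3K27ac and do not stand for all 10 genes. In the 300 bp around a start, Boc, marked at every stage, held 7 and 9 CpG. Gli1, without promoter H3K27ac in aNPC and eA, held 7 and 23. The Shh stretch also overlaps an exon of the noncoding gene 9530036O11Rik.

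H3K27ac was denser around the Hedgehog genes in eA and lA than in aNPC. The H3K27ac peaks in the windows numbered 58 at the aNPC stage, 85 at the eA stage and 86 at the lA stage, which is 5.51, 8.07 and 8.16 peaks per 100 kb over the 1053 kb of all windows. The median over the 10 genes was 4.44, 6.44 and 9.33 peaks per 100 kb, beside 3.88, 4.63 and 4.53 over all coding genes with windows of the same kind. H3K4me1 moved less, with 166, 177 and 185 peaks and a median of 15.4, 17.4 and 19.1 per 100 kb, beside 8.89, 10.3 and 11.0 over all coding genes. These counts moved with the length of the lists: with the same number of peaks kept per list of a mark, those with the highest −log10 q, the windows held 58, 82 and 71 H3K27ac peaks, and the H3K4me1 order turned, to 166, 153 and 139. The part of sequencing depth in these counts was not tested. Of the H3K27ac peaks, 38 of 58, 60 of 85 and 58 of 86 had their summit in an intron and did not touch a promoter.

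The genes differed in this course. Boc had 12, 15 and 13 H3K27ac peaks in aNPC, eA and lA, and was the densest of the 10 genes in aNPC and eA at 12.8 and 16.0 per 100 kb. Cdon went from 5 to 10 and then 12 peaks, Gli2 from 8 to 15 and 15, and Gli3 from 12 to 18 and 18. Ptch1 and Hhip had fewest peaks in lA, with 10, 12 and 7 at Ptch1 and 4, 6 and 3 at Hhip. Shh had 1, 3 and 3, Gli1 had 1, 2 and 4, and Smo had 3, 3 and 4. At each stage 2 of the peaks in the Smo window lay at the promoter of Ahcyl2. Gas1, in a window of only 22961 bp, had 2, 1 and 7, but the stretch covered by these peaks was 2.89, 2.31 and 2.56 kb, and 3 of the 7 lA peaks lay in regions found in lA only. Covered length at Ptch1 went from 6.63 to 6.04 and 4.20 kb, and at Boc from 6.61 to 10.7 and 9.36 kb.

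**Figure D1:**
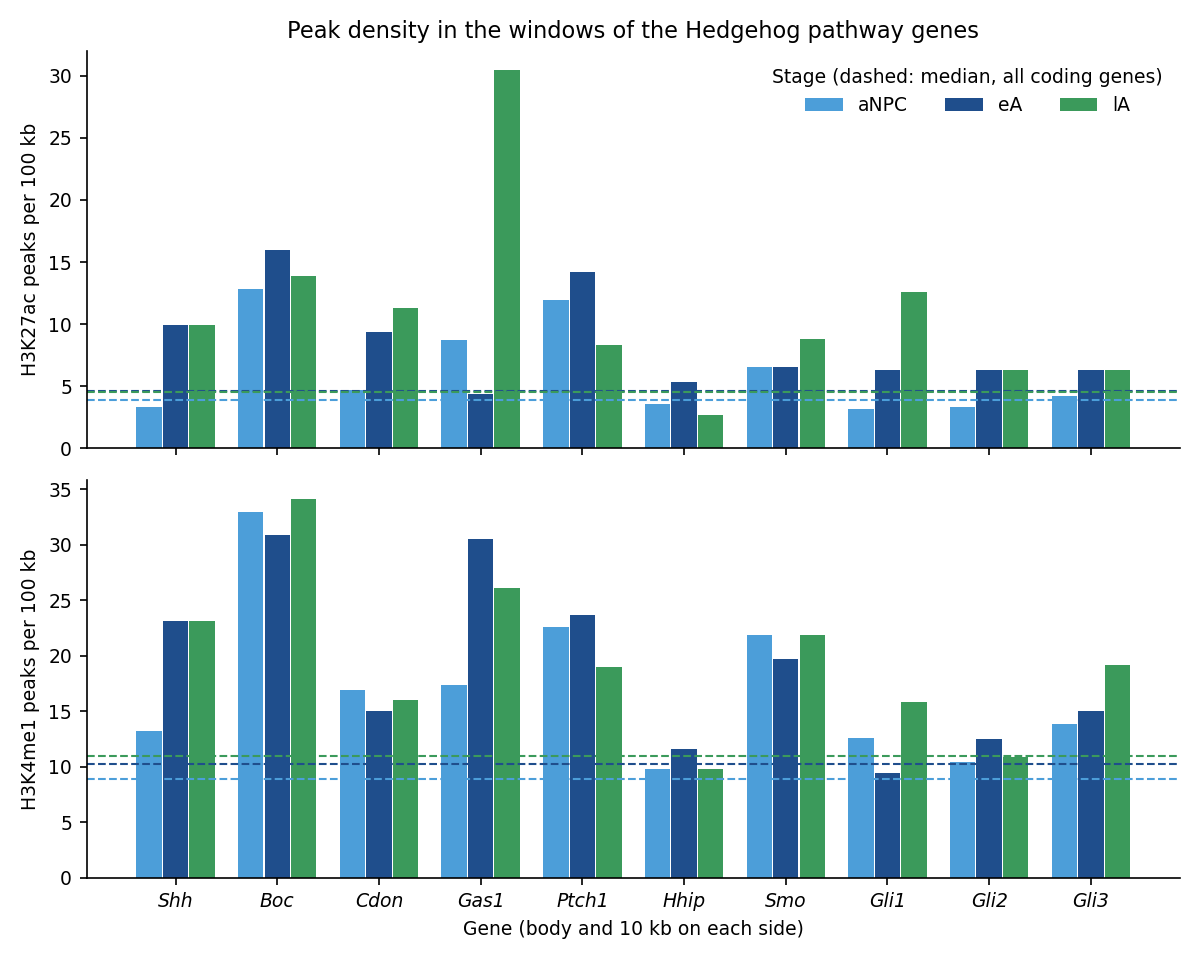
Peaks per 100 kb of gene window for H3K27ac (upper panel) and H3K4me1 (lower panel) in aNPC, eA and lA, 1 merged list per bar, with the median over all coding genes as dashed lines. H3K27ac density at Ptch1 and Hhip is lowest in lA, while Cdon, Gas1, Smo and Gli1 have their highest value there, with Gas1 at 30.5.

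A promoter was defined around each protein-coding transcript start, reaching 1 kb upstream and 100 bp downstream of it, and a promoter peak overlapped it by at least 1 bp. By this measure 8, 8 and 7 of the 10 genes had a promoter H3K27ac peak in aNPC, eA and lA, where 50.5%, 53.2% and 48.1% of all coding genes had one. With the summit required inside the promoter the counts were 4, 5 and 4, and Boc, Gas1 and Smo lost the call at every stage. The share of coding genes was not computed with the summit required inside, so these counts cannot be set beside the shares above. By overlap, Boc, Cdon, Gas1, Ptch1, Smo and Gli3 had it at every stage, and Shh at none. Hhip and Gli2 had a promoter peak in aNPC and not in lA, a pattern seen in 5.05% of coding genes, and Gli1 had one in lA and not in aNPC, as did 2.66%. Promoter H3K4me1 was present at 9, 9 and 7 genes, beside 55.4%, 53.6% and 52.7% of coding genes. By this definition it was present in aNPC and not in lA at Hhip and Gli3 (6.70% of coding genes), and no Hedgehog gene gained it (3.97%). Gas1 lost its lA call with a −log10 q of at least 5 and with equal list lengths, which left 6 genes in lA.

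Among the co-receptors, which help Ptch1 to bind ligand, the promoters of Boc and Cdon ranked high throughout. The best promoter H3K27ac peak of Boc stood at percentiles 95.9, 98.9 and 99.3 in the 3 stages, and that of Cdon at 94.0, 96.7 and 96.8. At Gas1, which encodes a membrane-anchored co-receptor, it stood at 92.3, 90.3 and 69.2. The best lA peak over the whole Gas1 promoter region, chr13:60276441-60278763, lay inside the single exon at percentile 82.2 and did not reach the promoter. The median over the 10105 coding genes with a promoter peak at all 3 stages was 91.6, 93.2 and 90.3, so Gas1 went from near that median to under it while Boc and Cdon stayed above it.

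Ptch1, the receptor that holds Smo inactive, has 4 coding starts. Its best promoter peak ranked at 93.3, 91.1 and 77.5 from aNPC to lA. The region over the start at 63665634, chr13:63664411-63666766, was found at all stages at percentiles 93.3, 87.3 and 77.5, and the next one upstream, chr13:63666906-63667526, at 71.2, 91.1 and 56.4. At the most distal start, at 63674474, the region ranked at 60.9 and 76.2 in aNPC and eA, and its lA peak ranked at 9.95 and lay just downstream of the promoter as defined. The separate eA peak at chr13:63674727-63674880, percentile 40.4, holds the Gli motif shown above, which lies 303 bp upstream of this start and also inside H3K4me1 peaks of aNPC and eA but of neither mark in lA. The 3 Ptch1 promoter regions with H3K27ac at every stage thus ranked lowest in lA.

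Smo, the transducer, had 1 promoter region at percentiles 98.8, 98.5 and 99.2, among the strongest of each list. Hhip, which binds and sequesters the ligand, had its best promoter peak at percentile 31.8 in aNPC and 68.2 in eA. In lA an H3K27ac peak of percentile 16.4 lay just inside the gene, with its summit 284 bp downstream of the start, and Hhip counted as marked at all 3 stages when promoters were taken as 1 kb on either side of a start. The change at Hhip is therefore one of rank and position. The H3K4me1 region at the 5′ end of Hhip, chr8:82580866-82581920, ranked at 81.2, 77.9 and 97.2 and reached the start in eA only, and with promoters of 1 kb on either side of a start Hhip had H3K4me1 at all 3 stages.

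The transcription factors differed from one another. At Gli2, the main activator of the pathway, the region over the upstream starts, chr1:120949831-120950849, ranked at 77.7 in aNPC and 76.2 in eA and had no lA peak, and a weaker region upstream of the internal start, at percentiles 48.2 and 20.4, had none either. This pattern held with each of the 4 other ways of calling a promoter peak. H3K4me1 nevertheless stayed on Gli2 promoters, at best percentiles of 96.1, 89.9 and 85.4. At Gli3, which acts mainly as a repressor, promoter H3K27ac stood at 82.4, 88.3 and 77.7, and its promoter H3K4me1 was a single aNPC peak of percentile 2.46, which did not remain with a −log10 q of at least 5. With promoters of 1 kb on either side of a start Gli3 had H3K4me1 in aNPC and eA, and an H3K4me1 region centred 999 bp from a start, chr13:15556419-15557205, was found at all stages at 57.1, 50.6 and 54.4. At Gli1, a pathway target and readout, the promoter H3K27ac of lA consisted of 2 peaks at percentiles 15.7 and 4.61, and neither remained with a −log10 q of at least 5. Gli1 promoter H3K4me1 was present throughout, at 67.8, 60.4 and 49.1. The Shh promoter had no H3K27ac. An H3K4me1 region at the 5′ end of Shh, chr5:28793026-28793588, ranked at 42.7, 65.2 and 24.5 and reached into the promoter in eA only, so Shh had promoter H3K4me1 at all 3 stages with promoters of 1 kb on either side of a start and at none with the summit required inside.

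Of the 6 genes with a promoter H3K27ac peak in both aNPC and lA, 2 (Gas1 and Ptch1) ranked lower in lA by 10 or more points, by 23.1 and 15.9 points, which 20.3% of coding genes with the peak at all stages did. None ranked higher by as much (9.23% of coding genes). The Gas1 promoter peak of aNPC was 1 long peak, but in lA this stretch was split into several. The strongest of these lA peaks, at percentile 82.2, lay outside the promoter and is not counted in the 23.1 points.

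**Figure D2:**
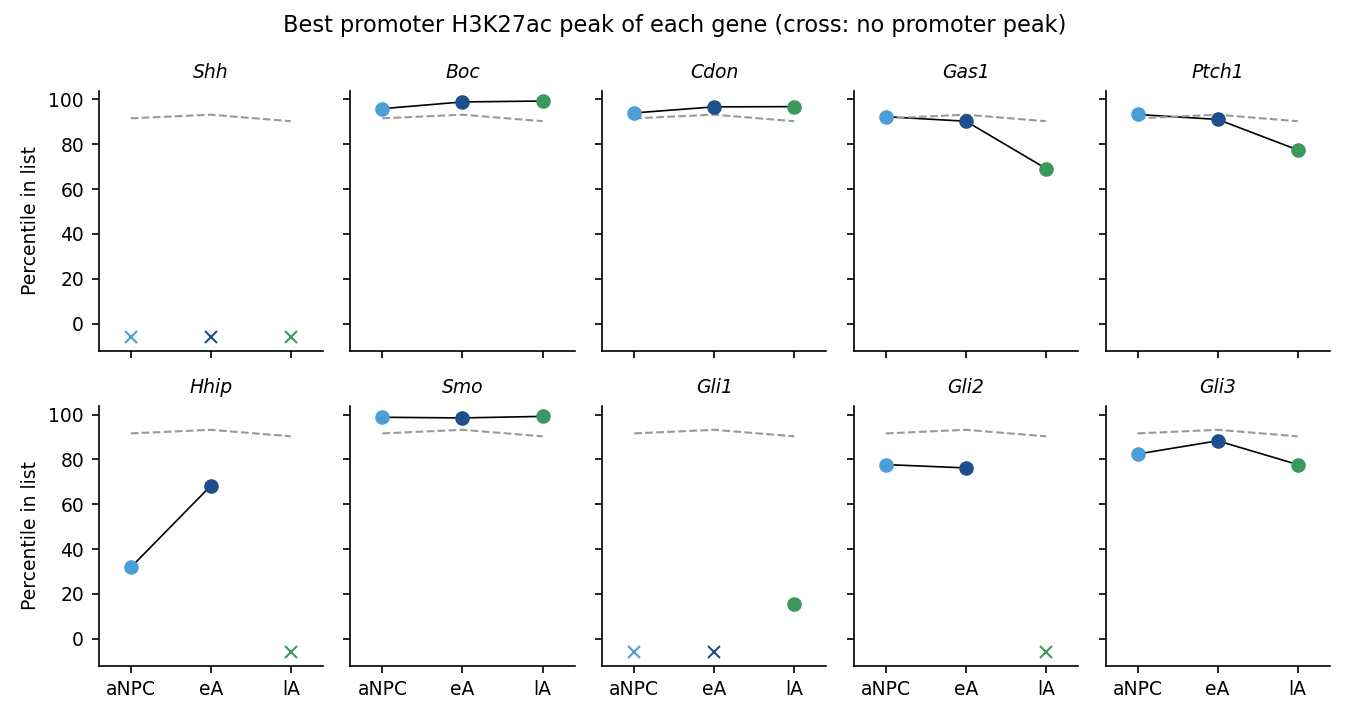
Percentile of the best promoter H3K27ac peak of each gene within the list of its stage, with crosses for stages without a promoter peak and the median over coding genes marked at all stages as a dashed line. Boc, Cdon and Smo stay above the dashed line, Gas1 and Ptch1 lie under it in lA, and Hhip and Gli2 have no promoter peak there.

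Peaks of one mark that overlapped by at least 1 bp across stages were merged into regions, 112 of H3K27ac and 216 of H3K4me1 at the Hedgehog genes. Of the H3K27ac regions, 11 (9.82%, exact 95% interval 5.01% to 16.9%) were found in aNPC only, beside 21.5% of all H3K27ac regions. The intervals cover counting error alone, and neighbouring regions of one gene are not independent. A further 19 (17.0%) were found in eA only and 21 (18.8%) in lA only, beside 11.1% and 19.3%. There were 7 in aNPC and eA (6.25%, beside 4.87%), 16 in eA and lA (14.3%, beside 13.9%) and 1 in aNPC and lA (0.893%, beside 3.30%). The largest class, 37 regions (33.0%), was found at all 3 stages, beside 26.0%. The interval of the aNPC-only share ends under the value over all regions, and those of the other 6 classes include theirs.

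H3K4me1 was more often shared. Of the 216 regions, 118 (54.6%, 47.7% to 61.4%) were found at all 3 stages, beside 39.1% of all H3K4me1 regions. The others were 16 in aNPC only (7.41%, beside 7.80%), 12 in eA only (5.56%, beside 8.11%), 37 in lA only (17.1%, beside 23.3%), 13 in aNPC and eA (6.02%, beside 7.72%), 15 in eA and lA (6.94%, beside 12.0%) and 5 in aNPC and lA (2.31%, beside 2.05%). Besides the class of all 3 stages, the intervals of lA only (12.4% to 22.8%) and of eA and lA (3.94% to 11.2%) exclude the value over all regions. Those of the remaining classes include theirs. With equal list lengths the order of the aNPC-only and lA-only counts turned, to 25 and 22. Of the lA-only H3K4me1 regions among the full lists, 17 lay at Gli3 and 7 at Boc.

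**Figure D3:**
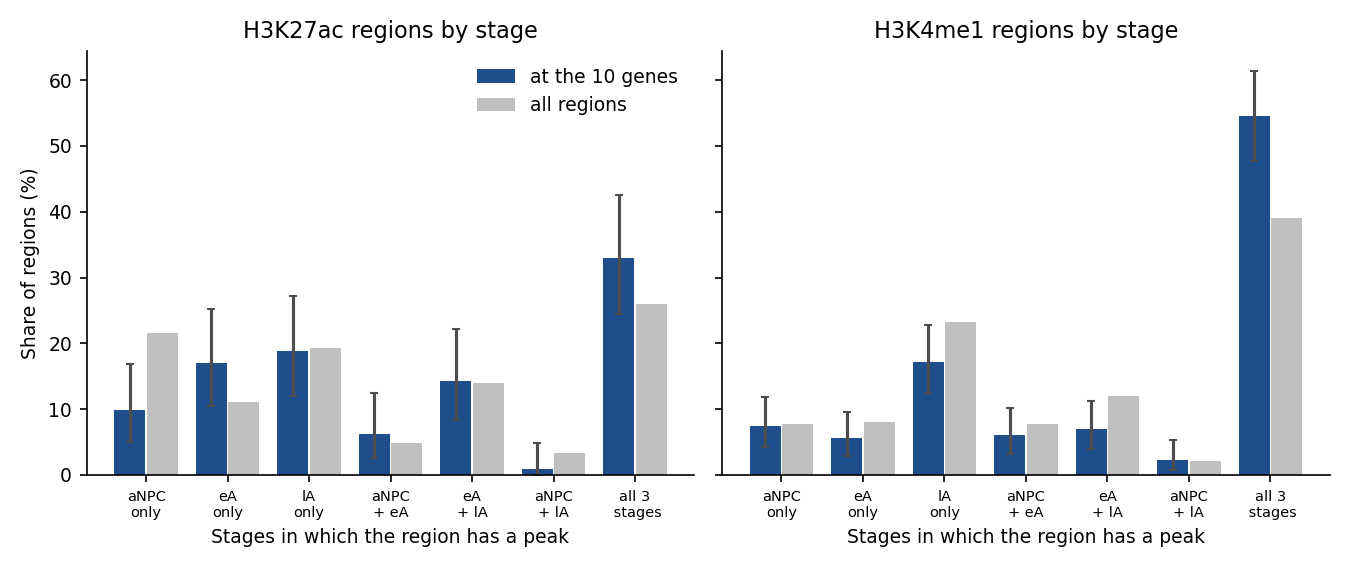
Share of merged regions by the stages in which they had a peak, at the 10 Hedgehog genes (dark bars, with exact 95% binomial intervals over regions) and over all regions of the mark (grey bars). For H3K4me1 the class found at all 3 stages holds 54.6% at these genes and 39.1% overall.

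Away from promoters of any coding gene, 91 H3K27ac regions remained, 18 each at Gli2 and Gli3, 17 at Boc, 11 each at Cdon and Ptch1, 6 at Hhip, 4 at Shh, 3 at Gas1, 2 at Gli1 and 1 at Smo. Of these, 24 were found at all 3 stages, and in 16 of the 24 the best peak ranked 10 or more points higher in lA than in aNPC, which 38.6% of all such distal regions did. In 3 it ranked 10 or more points lower (31.6% of all such regions) and in 5 it moved by less. When weaker peaks (−log10 q under 5) were left out, 15 such regions remained at the Hedgehog genes, of which 9 ranked higher and 1 lower by as much. The share of all distal regions was not computed with weaker peaks left out, so these counts have no background beside them. Over the full lists, with weaker peaks kept, the median change was 27.9 points at the 24 Hedgehog regions and 2.15 points over all 22241 such regions. The median was not recomputed without the weaker peaks.

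Boc showed this course in each of its 6 distal regions found at all 3 stages, with a median of 55.3 points, but 3 of the 6 had an aNPC −log10 q under 5 and leave this class when weaker peaks are left out. The region 42411 bp inside the gene, chr16:44516008-44517136, whose summit sequence is shown above, ranked at 49.0, 88.6 and 95.2. That at chr16:44529825-44531016 went from 20.3 to 90.8 and 89.9, and that at chr16:44542481-44543061 from 5.38 to 40.8 and 78.9, and the aNPC peaks of these last regions were among the weaker ones, at a −log10 q of 4.77 and 3.34. The 3 intronic regions carried H3K4me1 at every stage, including aNPC. The strongest Boc intronic region in aNPC, chr16:44492907-44495363, was already at 80.6 there and reached 91.8 in lA. Nearer the start, where the intronic Gli motif lies 6710 bp into the gene inside H3K4me1 peaks of aNPC and eA, 2 short H3K27ac regions at 7164 and 6484 bp were found in aNPC only. They ranked at 40.3 and 0.293, the latter with a −log10 q of only 2.21, and neither contained the motif.

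At Cdon the region over the end of the gene, chr9:35315033-35316042, went from percentile 58.7 to 76.2 and 95.0, under H3K4me1 at percentiles 99.0, 99.7 and 99.2. A second Cdon region 24757 bp from the nearest start moved the other way, from 63.7 and 73.2 to 50.9. At Gas1 the 3 distal regions were all found in lA only and lay downstream of the gene at 3105 to 5285 bp from the start, with percentiles of 23.4 to 56.0.

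Shh had no promoter H3K27ac but 2 upstream regions at all stages, of which the farther had its aNPC peak just beyond the 10 kb flank. The one centred 9279 bp upstream, chr5:28802558-28803283, went in rank from 20.3 to 53.2 and 89.0, and its neighbour at 10017 bp from 15.0 to 57.7 and 55.5. Both aNPC peaks had a −log10 q under 5, at 4.77 and 4.28. H3K4me1 over both ranked at 91.5, 97.2 and 97.1. Inside Shh, H3K4me1 at chr5:28790768-28792510 ranked above 90 in each list, at 93.2, 96.4 and 92.4, with H3K27ac in eA alone at 21.1.

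At Ptch1, 4 of the 11 distal regions were found in aNPC only, as were 3 of 17 at Boc and none at Cdon or Gas1. The Ptch1 intron held a run of 5 H3K27ac regions between 9148 and 11925 bp from the start at 63665634. Of these, 3 were found in aNPC only and 2 in aNPC and eA, and none had a lA peak. The strongest, chr13:63655433-63655946, ranked at 86.2 in aNPC, and the next, chr13:63656197-63656776, at 76.0 in aNPC and 37.1 in eA. H3K4me1 at the strongest was still called at all 3 stages, while the next had none. A further 3 Ptch1 regions at 7509, 14720 and 15514 bp were found in eA and lA, the highest of them at percentile 66.9 in lA. The only distal Ptch1 region found at all stages went from 43.6 to 37.4 and 9.95.

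Hhip had 1 distal region found at all stages, 64799 bp into the gene, at 47.6, 40.7 and 52.8, and an intronic region 2168 bp from the start that was found in aNPC only at 67.3. No Hhip or Ptch1 distal region was found in lA only. The sole Smo distal region away from another promoter was found in lA only, at 51.8. The other Smo-window regions, 32260 and 33436 bp from the Smo start, lie at the promoter of Ahcyl2 and cannot be assigned to Smo.

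**Figure D4:**
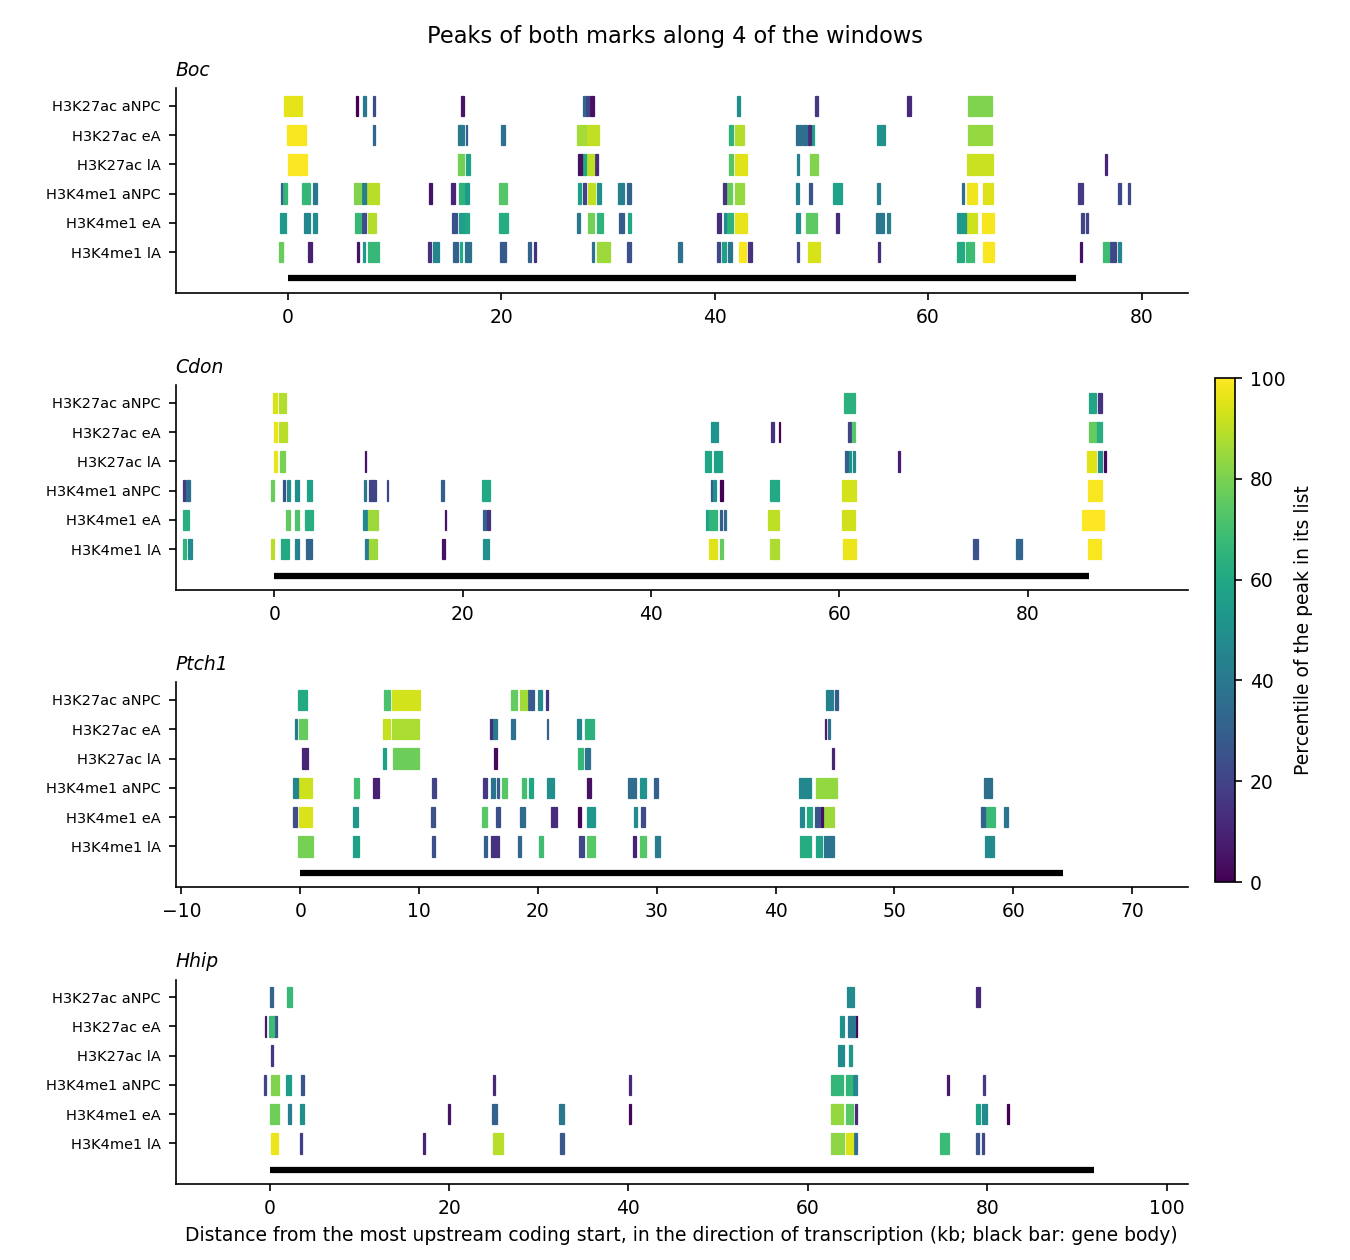
H3K27ac and H3K4me1 peaks along the Boc, Cdon, Ptch1 and Hhip windows by stage, drawn to scale against the distance from the most upstream coding start, with colour for the percentile of each peak in its list. The Boc intronic H3K27ac region 42411 bp from the start ranks at 49.0 in aNPC and at 88.6 and 95.2 in eA and lA, and the Ptch1 intronic cluster near 20 kb is present in aNPC and gone in lA.

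Gli2 had 7 distal H3K27ac regions found in lA only and 4 in eA and lA. Among the latter, chr1:120812838-120814144 ranked at 70.6 and 64.3 and chr1:120807327-120807873 at 76.1 and 77.3. Both lay in sequence that had H3K4me1 in aNPC, at percentiles 97.7 and 88.3. Of the 7 lA-only regions, the highest stood at percentile 49.3 and 3 stood under 2. The strongest Gli2 distal region, chr1:120929886-120931298, 19324 bp from the start, held its rank at 90.9, 84.1 and 86.2. At Gli3, chr13:15648009-15649168 went from 11.8 (−log10 q 4.13) to 79.1 and 71.4, and chr13:15694481-15695245 from 45.3 to 31.0 and 9.13. Gli1 had an intragenic region 2177 bp from the start at 24.0, 70.8 and 52.5 and a neighbour at 1627 bp in eA and lA at 49.9 and 39.1, beside an H3K4me1 region at 96.5, 95.9 and 97.9.

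**Figure D5:**
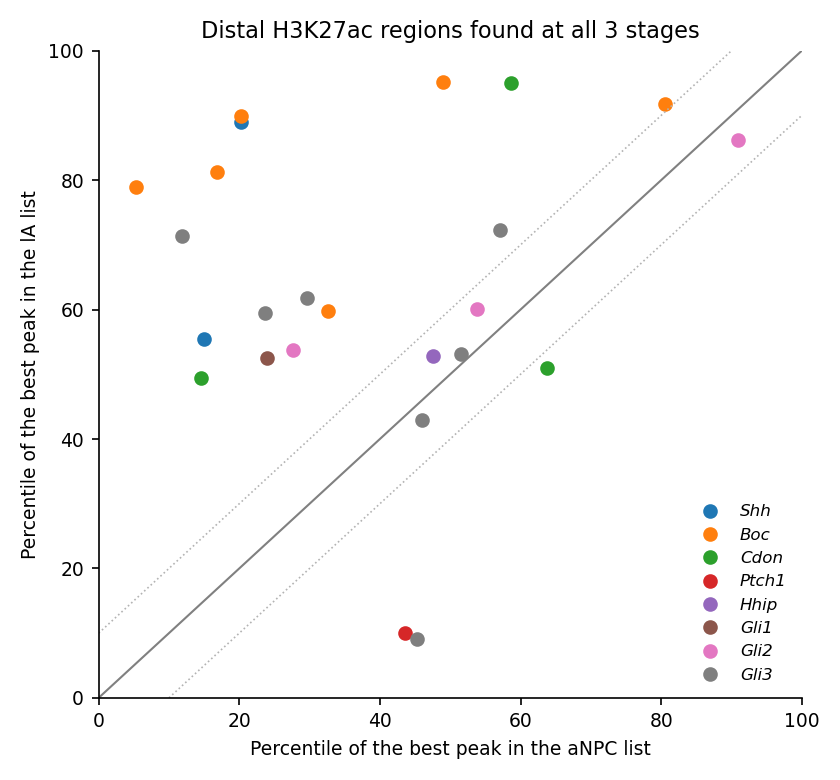
Percentile of the best H3K27ac peak in the lA list against that in the aNPC list for the 24 distal regions found at all 3 stages, coloured by gene, with the line of equality and dotted lines 10 points to either side. All 6 Boc regions lie above the upper dotted line, and the Ptch1 region lies under the lower one.

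Most distal acetylation that appeared after aNPC did so on sequence that already had H3K4me1. Of the 51 distal H3K27ac regions without an aNPC H3K27ac peak, 38 (74.5%, exact 95% interval 60.4% to 85.7%) had an aNPC H3K4me1 peak, beside 49.2% of such regions in the whole lists. Of the 19 found in lA only, 12 (63.2%, 38.4% to 83.7%) had H3K4me1 in lA, beside 73.0%. Of the 11 found in aNPC only, 7 (63.6%, 30.8% to 89.1%) still had H3K4me1 in lA, beside 49.3%, and both intervals include the value over the lists.

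Within a stage, 82.8%, 84.7% and 75.6% of H3K27ac peaks at the Hedgehog genes overlapped an H3K4me1 peak in aNPC, eA and lA, beside 82.0%, 86.5% and 82.2% of all H3K27ac peaks, and each of the latter lay inside the exact 95% interval of the former. Of the H3K4me1 peaks, 27.1%, 35.0% and 31.4% overlapped H3K27ac, beside 38.9%, 36.0% and 33.7%. The aNPC share had an interval of 20.5% to 34.5%, under the share in the whole list.

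Exact motif matches around summits were few. In the 200 bp around each summit, the Gli motif was matched by 1 of 85 H3K27ac peaks in eA (0.171% of all eA H3K27ac peaks), the Ptch1 one above, and by none of 58 in aNPC or 86 in lA. For the NF1 half-site, 6.90%, 12.9% and 4.65% of H3K27ac peaks in aNPC, eA and lA matched, beside 11.1%, 11.5% and 11.0% of all. For AP-1 the shares were 3.45%, 5.88% and 3.49%, beside 5.83%, 5.70% and 5.67%, and for RUNX 6.90%, 4.71% and 4.65%, beside 3.90%, 3.73% and 3.90%. Among H3K4me1 peaks the Gli motif was matched by 1 of 166, 0 of 177 and 1 of 185, beside 0.178%, 0.181% and 0.164% of all. For the NF1 half-site the H3K4me1 shares were 8.43%, 8.47% and 14.1%, beside 17.3%, 16.0% and 16.1%. Those for AP-1 were 4.22%, 3.95% and 7.57%, beside 7.22%, 7.67% and 7.90%. Those for RUNX were 4.82%, 3.95% and 3.78%, beside 4.25%, 4.29% and 4.47%. Both strands were searched, and none of the 4 motifs contains another. In the 300 bp from 250 bases before to 50 after a coding start, none of the 23 promoters of the 10 genes held the Gli motif (0.220% of 45969 promoters), and 1 each held the NF1 half-site (a Gli2 promoter, 12.9%), the AP-1 motif (a Gli3 promoter, 6.49%) and the RUNX motif (a Ptch1 promoter, 4.79%). This stretch is shorter than the promoters defined above. Those held Gli matches 919 and 303 bp upstream of Ptch1 starts, and only the match at 303 bp lay in a peak. In all, the windows held 15 exact Gli matches, 6 of them at Gli2 and 3 at Ptch1, and 2 of the 15 lay in a peak.

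Of 32 other pathway genes, 31 were found in the annotation. Their promoter H3K27ac was present at 18, 20 and 16 genes in aNPC, eA and lA, where 50.5%, 53.2% and 48.1% of all coding genes had it. At every stage it was present at 10105 of the 22365 coding genes, and the share with it at no stage was not computed. Genes acting between Smo and the Gli proteins were nearly all marked, with 10 of 11 at every stage, among them Sufu, which restrains the Gli proteins, at 92.3, 93.6 and 86.2, and Gpr161, a ciliary receptor that opposes the pathway, at 65.9, 78.1 and 95.1. The exception, the ciliary gene Evc, had the peak in aNPC and eA only. All 4 genes needed for the primary cilium (Arl13b, Ift88, Kif3a and Tulp3) were marked at each stage. Of 6 genes for ligands, their release or uptake, none was marked in aNPC: Ihh, Dhh and Scube2 had no peak at any stage, Disp2 and Lrp2 had one in eA only, and Hhat, which attaches palmitate to the ligand, had one in eA and lA at 56.5 and 75.7. Of 10 target genes, 7 had none at any stage (Foxa2, Nkx2-1, Nkx2-2, Nkx6-1, Nkx6-2, Olig2 and Foxf1). The cell cycle gene Ccnd1 had one in aNPC only at 89.6, Bcl2 in aNPC and eA at 92.7 and 93.7, and Mycn at all stages at 65.4, 27.3 and 23.5.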

How the data were processed

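H3K27ac and H3K4me1 ChIP-seq peak lists of aNPC, eA and lA were used. The authors checked read quality (FASTQC), kept unique Bowtie alignments to mm9, pooled 2 replicates per stage and mark with SAMTOOLS and called peaks with MACS at default settings without an input control. The deposited lists give positions, summits (as an offset from the peak start), a score that MACS derives from significance, the fold enrichment as a ratio over local background and −log10 p and q. The authors' −log10 q values were used only to rank or filter peaks within one list. How deeply the libraries were sequenced is not given in the sources used here, and intervals cover counting error only.

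Each list was limited to the assembled nuclear chromosomes, which set aside 4 or 5 peaks. Genes came from GENCODE M1 on mm9. Windows, promoters, overlaps of at least 1 bp, merged regions and motif matches were computed with Python 3.11.15 and SciPy 1.17.1 (matplotlib 3.10.9 for plots), after overlap code was tested on simulated data. Percentiles do not correct for list length, and peaks were called on merged reads, so no test between stages was made. All 10 genes are named. Of the other pathway genes, those whose promoter state changed or that had no peak are named, with marked genes as examples. The genes, gene lists and motifs were chosen with earlier results of these data known. The alternatives were a −log10 q of at least 5, equal list lengths, flanks of 5 and 50 kb, summit-based assignment, a promoter of 1 kb on either side of any start, and overlap of 50% of the shorter peak. Of 51 samples, 8 RNA-seq samples have conflicting labels, and RNA-seq, knockdown samples and signal tracks were not used here. One gene of the list of other pathway genes is not reported here.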

Additional observations from a re-analysis of the deposited data

How the results depend on the processing

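Of 113 values recomputed for 25 counts and shares, 97 stayed within 1.5 times the reported count or within the interval of the reported share. With a −log10 q of at least 5, H3K27ac regions found in 1 stage numbered 7 (aNPC), 12 (eA) and 11 (lA), and of the 15 distal regions then found at all 3 stages 9 ranked 10 or more points higher in lA and 1 lower. With equal list lengths, lA-only H3K27ac regions numbered 12, aNPC-only H3K4me1 regions 25 and lA-only ones 22. Of the 22 distal H3K27ac regions of all 3 stages, 15 then ranked higher and 2 lower. These recounts of rank changes were chosen after seeing the data. Shares over all coding genes or regions are given with the reported settings only, so the recounts in this section have no background beside them. With 50 kb flanks, the windows held 88 aNPC H3K27ac peaks and 19 aNPC-only regions. If shared peaks had to overlap by 50% of the shorter one, 19 H3K4me1 regions were eA only. If the summit had to lie in the promoter, 4, 5 and 4 genes had promoter H3K27ac in aNPC, eA and lA, with Boc, Gas1 and Smo losing the call at every stage and Hhip in aNPC. If the H3K27ac summit had to lie in an H3K4me1 peak, the shared fraction was 65.5% in aNPC and 70.6% in eA. No paired analysis was possible because each list was called on merged replicates, which also meant that no replicate could be left out. What the unknown depth of each library adds to differences in peak number between stages was not tested.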
